A study of Magallana angulata with 8 samples.

Results

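Gill was compared with mantle in the Fujian oyster, Crassostrea angulata, across all 8 libraries of the series, 4 of gill and 4 of mantle. The libraries were matched as 4 gill-mantle pairs by oyster group and Cu class, so that each pair stood for 1 pool of 6 oysters. Adult oysters from a culture zone were taken for RNA either without exposure (group 1) or after 30 days in seawater with 30 µg/L Cu (group 2), and in each group oysters with low body Cu (L) and with high body Cu (H) were pooled apart. The pools are named 1-L, 1-H, 2-L and 2-H here, and a G before the name marks the gill library of a pool and an M its mantle library (G1-L and M1-L, for example). No pool gave more than 1 library per tissue, and group 2 differed from group 1 in exposure, in keeping and in time together, which cannot be told apart. Of 25647 annotated genes, 20123 had a mean of at least 1 RPKM (reads scaled to gene length and to the depth of the library) over the 8 libraries and were tested.

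The oyster gill is a sheet of filaments covered by ciliated epithelium, and the beat of its cilia draws water over the gas exchange surface and carries food particles along it. The mantle lines the shell. Its edge secretes the organic matrix and the mineral of the shell, carries sensory and neural structures, and is moved by muscle fibres. Gene names are those of the best protein match given with the deposited values, so that a role stated for a gene is the role known for that protein, mostly from vertebrates, flies or other molluscs.

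Depth was similar in both tissues. Whole reads recovered from the RPKM values gave totals of 2049648 to 2589520 in the gill libraries and of 2015372 to 2425350 in the mantle libraries, and 20960 to 21508 genes had reads in a library. The first principal component, with 43.3% of the variance of the log2(RPKM + 0.1) values, had the gill libraries at scores of -129 to -57.4 and the mantle libraries at 87.1 to 149. Both tissues thus stood apart, with G2-L the gill library nearest to the mantles. The axonemal genes, tyrosinases and engrailed described further on were higher in the tissue of the label in every pool. Tyrosinases and engrailed were chosen after their values were seen, however, and the axonemal list with earlier results of these data known. None of them is an independent check of the labels. Of 86 tested shell genes, 24 were called lower in gill (at the threshold given below). Another 7 were called higher, among them chitin synthase 1 and a perlucin gene (OYG_10004933_10003387). The second component, with 13.7%, set M2-L apart from the other 7 libraries. Across genes, Spearman correlations were 0.861 to 0.921 between gill libraries, 0.819 to 0.885 between mantle libraries and 0.737 to 0.786 between the gill and the mantle of 1 pool. In M2-L the 100 most abundant genes took 33.2% of the reads, against 16.8% to 29.5% in the other libraries.

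Genes that were near absent from most gill libraries had reads in G2-L. Of 187 genes with a mean of at least 20 RPKM in mantle and with 0 reads in 2 or more gill libraries, 163 had reads in G2-L, 76 in G2-H, 19 in G1-H and 17 in G1-L. Their summed RPKM was 7.87% of that in the mantle of the same pool in G2-L, and 0.540%, 0.183% and 0.399% in G1-L, G1-H and G2-H. For 9 genes chosen the same way for gill, the summed RPKM in the mantle libraries was 1.88% to 9.12% of that in the gill of the same pool. Counts of calls in gene lists are therefore given below with each pool left out in turn. The part of mantle RNA in the values of G2-L was not tested.

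**Figure D1:**
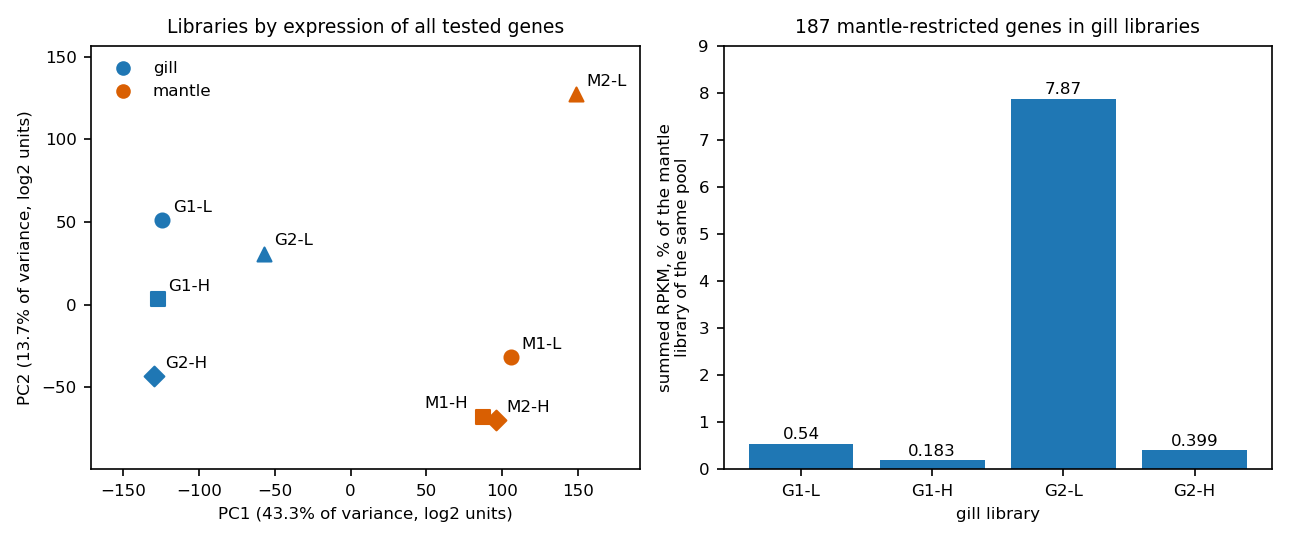
Left, scores of the 8 libraries on the first and second principal components of log2(RPKM + 0.1), with the percentage of variance on each axis, gill in blue and mantle in orange. Right, summed RPKM of the 187 mantle-restricted genes in each gill library as a percentage of the mantle of the same pool, where the bar of G2-L reaches 7.87%, against 0.183% to 0.540% in the other gills.

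Gill and mantle differed in 2987 of the 20123 genes, or 14.8%, with 1847 higher in gill (9.18%) and 1140 lower in gill (5.67%). These shares of all genes are the reference for the counts of calls in the lists below. A gene counts as called at an adjusted p under 0.05 in limma, with the pool as a block and Benjamini-Hochberg adjustment over all genes tested. The direction was the same in all 4 pairs for 2984 of these genes, and 2816 differed by at least 2-fold. For genes with 0 reads in a library the fitted change depends on the added 0.1 and is no bound. Large differences on the log2(RPKM + 0.1) scale were mostly genes low in gill. A log2 change of at least 3 was seen for 320 genes called higher in gill and for 641 called lower, and one of at least 6 for 3 and 215. Complete separation of the tissues was more frequent for genes higher in gill. All 4 gill libraries stood above all 4 mantle libraries for 2529 genes (12.6%), and the reverse held for 1406 genes (6.99%).

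The share of calls that were higher in gill, 61.8%, depended on scaling. The median log2 change over all genes tested was 0.21, and with each library centred on its median the calls were 1435 higher and 1386 lower, or 50.9% higher. Within a pair, 3780 to 3994 genes were at least 2-fold higher in gill in pools 1-L, 1-H and 2-H and 6876 in pool 2-L, where the median of all genes was shifted by 0.39. At least 2-fold in all 4 pairs, without a model, were 1220 genes higher (6.06%) and 921 lower (4.58%). With only 4 pairs, the count depended on each. There were 1500 calls without pool 1-L, 1841 without pool 1-H, 2664 without pool 2-L and 1399 without pool 2-H, and 2360 of those made without pool 2-L were among the 2987. The p-values rest on the spread of the gill minus mantle difference between pools, which also differed in Cu class and exposure. In whole tissue, fewer cells of a type and less RNA per cell cannot be told apart.

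**Figure D2:**
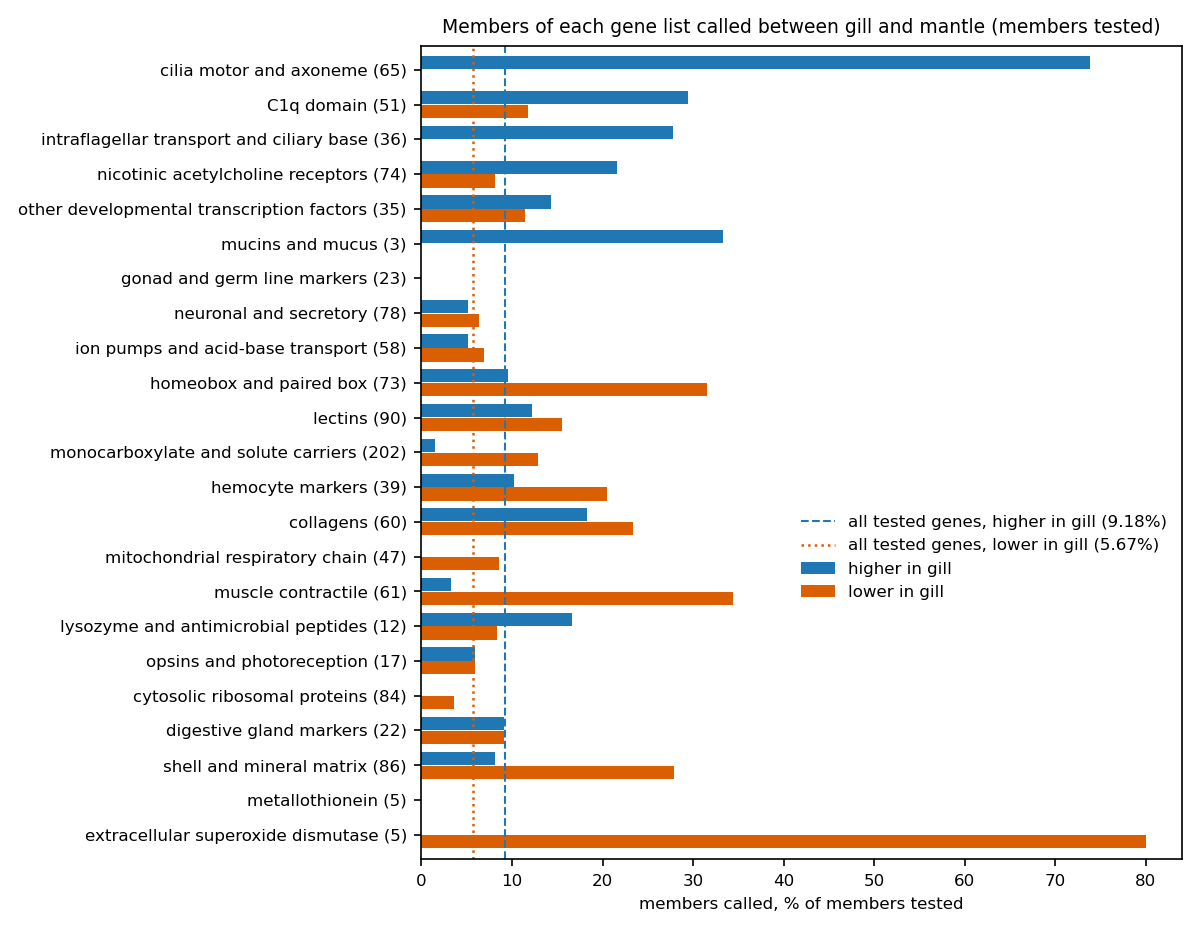
Percentage of tested members called higher in gill (blue) and lower in gill (orange) for each of 23 gene lists, ordered by median log2 change, with the number of members tested in parentheses; the dashed and the dotted line mark the 9.18% and the 5.67% of all tested genes called higher and lower. The cilia list has the longest blue bar, with 48 of 65 members, and the extracellular superoxide dismutases, with 4 of only 5, the longest orange bar.

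Genes of ciliary beating had the largest share of calls higher in gill among the lists. Of 71 genes named for axonemal motors and axoneme structure, 65 were tested and 48 were called higher in gill, against 9.18% of all genes, and 0 were called lower. The median log2 change of the 65 was 1.79, against 0.21 for all genes. The summed level of the list was 6997, 6594, 5160.1 and 7636 RPKM in gills 1-L, 1-H, 2-L and 2-H, against 1858, 2207, 1600.0 and 2054 RPKM in the mantles in the same order. Mantle thus held ciliary transcripts as well, at a lower level, and G2-L was the lowest of the gills. The calls higher in gill were 36 without pool 1-L, 43 without pool 1-H, 48 without pool 2-L and 33 without pool 2-H. Values of single genes follow the same order of pools in each tissue.

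Structural proteins of the axoneme were among the most abundant members. Outer dense fiber protein 3 (OYG_10008688_10037758) had 593, 533, 585 and 674 RPKM in gill and 139.9, 249, 109 and 190.1 RPKM in mantle. The lowest gill value was above the highest mantle value (log2 change of 1.86 ± 0.25 (SE), adjusted p = 0.00429). Radial spoke head 1-like (OYG_10006989_10033084), part of the spokes that regulate dynein, had 1099, 1034, 513 and 731 RPKM in gill and 230.1, 215, 249 and 191 RPKM in mantle (log2 change of 1.87 ± 0.25 (SE), adjusted p = 0.00445). Here too the groups did not overlap, although G2-L was the lowest gill. A second spoke protein, radial spoke head protein 4-like protein A (OYG_10022074_10038105), had 485, 469, 379 and 573 RPKM in gill and 108, 113, 134 and 143 RPKM in mantle (log2 change of 1.93 ± 0.19 (SE), adjusted p = 0.00225).

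Some motors and filaments of the axoneme showed larger fold differences. The dyneins and tektins named here were chosen after their values were seen. Dynein heavy chain 5 (OYG_10010994_10013537), a motor of the outer arm, had 95.1, 97.1, 70.9 and 122 RPKM in gill and 15.4, 22.8, 8.67 and 21.1 RPKM in mantle (log2 change of 2.56 ± 0.22 (SE), adjusted p = 0.0019). Ciliary dynein beta chain (OYG_10005381_10011483) had 112, 100.1, 75.7 and 148 RPKM in gill and 19.7, 23.7, 10.5 and 27.7 RPKM in mantle (log2 change of 2.46 ± 0.21 (SE), adjusted p = 0.00188). For both dyneins the gill values lay above the mantle values, as they did for the tektins, filament proteins of the ciliary doublet microtubules. Tektin-3 (OYG_10010028_10031625) had 253, 269, 187 and 341 RPKM in gill and 42.7, 76.4, 31.9 and 80.9 RPKM in mantle (log2 change of 2.25 ± 0.20 (SE), adjusted p = 0.00197). Tektin-1 (OYG_10027835_10013449) had 159, 153, 116 and 164 RPKM in gill and 46.6, 46.3, 37.2 and 47.9 RPKM in mantle (log2 change of 1.73 ± 0.17 (SE), adjusted p = 0.0022). For FoxJ1-A (OYG_10021832_10033550), the transcription factor that switches on motile cilia genes in vertebrates, the values were 58.3, 47.4, 14.3 and 29.4 RPKM in gill and 7.9, 15.2, 3.47 and 12.2 RPKM in mantle. Within every pool gill was higher (log2 change of 1.95 ± 0.31 (SE), adjusted p = 0.00803), although G2-L lay below the highest mantle, M1-H.

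The machinery that builds cilia differed less. Of 41 genes of intraflagellar transport, which carries cargo along cilia, and of the ciliary base, 36 were tested. They had a median log2 change of 0.84, and 10 were called higher in gill and 0 lower. Fewer were called without pools 1-L, 1-H or 2-H and more without pool 2-L, with 1 without pool 1-L, 2 without pool 1-H, 12 without pool 2-L and 1 without pool 2-H. Intraflagellar transport protein 88-like (OYG_10020543_10038832) had 34.2, 34, 62 and 53.2 RPKM in gill and 19.2, 16.6, 16.5 and 23.1 RPKM in mantle (log2 change of 1.24 ± 0.24 (SE), adjusted p = 0.0172). Its groups did not overlap, and its call was lost with adjusted p = 0.0507 without pool 1-L, 0.0541 without pool 1-H and 0.0873 without pool 2-H. Name families chosen after their values were seen included proteins with a Tctex1 domain, which are dynein light chains, with 9 of 13 tested called higher and 0 lower (5 without pool 1-L, 6 without pool 1-H, 8 without pool 2-L and 7 without pool 2-H). Tubulin polyglutamylases, enzymes that modify ciliary tubulin, had 7 of 12 called higher and 0 lower (1 without pool 1-L, 3 without pool 1-H, 5 without pool 2-L and 2 without pool 2-H).

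Tubulins, the subunits of microtubules in cilia and elsewhere, split by gene. Of 15 tested, 6 were called higher in gill and 5 lower, with 3 higher and 3 lower without pool 1-L, 5 higher and 3 lower without pool 1-H, 6 higher and 5 lower without pool 2-L and 3 higher and 3 lower without pool 2-H. This family was chosen after its values were seen. A tubulin beta chain among the most abundant genes higher in gill (OYG_10019835_10037102) had 3495, 3211, 2129 and 2678 RPKM in gill and 209, 320.3, 351 and 517 RPKM in mantle. Every gill value was above every mantle value (log2 change of 3.09 ± 0.31 (SE), adjusted p = 0.00229). A tubulin alpha-1C chain (OYG_10008247_10021131) had 2260.0, 2485, 2488 and 2254 RPKM in gill and 602, 1084, 863 and 738 RPKM in mantle (log2 change of 1.56 ± 0.22 (SE), adjusted p = 0.00515). Another gene of that name (OYG_10002455_10021131) had 3079, 2969, 3199 and 2896 RPKM in gill and 814, 1432, 1269.8 and 986 RPKM in mantle (log2 change of 1.46 ± 0.24 (SE), adjusted p = 0.00877), with adjusted p = 0.0564 without pool 1-L and 0.0598 without pool 2-H. In the opposite direction, and chosen after its values were seen, a tubulin alpha-1C chain (OYG_10007570_10039178) had 111, 114, 138 and 118 RPKM in gill and 334, 523, 414 and 303 RPKM in mantle (log2 change of -1.68 ± 0.20 (SE), adjusted p = 0.00318). Tubulin alpha-3 chain (OYG_10018930_10021131), chosen in the same way, had 82.6, 102, 77.6 and 49.4 RPKM in gill and 386, 197, 448 and 239.8 RPKM in mantle (log2 change of -2.0 ± 0.28 (SE), adjusted p = 0.00517). Near-identical tubulin genes may share reads, so that levels of single copies are uncertain.

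Muscle genes were more often lower in gill than higher. Of 65 contractile genes, 61 were tested, with a median log2 change of -0.66. Of the 61, 21 were called lower in gill and 2 higher, against 5.67% and 9.18% of all genes. The calls were 1 higher and 11 lower without pool 1-L, 2 higher and 12 lower without pool 1-H, 1 higher and 26 lower without pool 2-L and 1 higher and 11 lower without pool 2-H. The summed level of the list was 4773, 4980.4, 6209 and 4255 RPKM in gill and 10863, 13054, 11188 and 8132 RPKM in mantle, with G2-L the highest gill. Actin 2 (OYG_10018876_10019133) had 1266, 1212, 1531 and 543 RPKM in gill and 7119, 9505, 4596 and 3252 RPKM in mantle. All mantle values were above all gill values (log2 change of -2.41 ± 0.29 (SE), adjusted p = 0.00328). Tropomyosin (OYG_10013164_10030930), which covers actin filaments at rest, had 366, 346, 506 and 298 RPKM in gill and 1339, 1621, 1387 and 920.4 RPKM in mantle (log2 change of -1.80 ± 0.21 (SE), adjusted p = 0.00301). Myosin essential light chain of striated adductor muscle (OYG_10018235_10016047) had 63.9, 93.7, 191 and 85.2 RPKM in gill and 1030.0, 1339.7, 1019 and 725 RPKM in mantle (log2 change of -3.34 ± 0.29 (SE), adjusted p = 0.0019). The groups were again separate for both genes. Paramyosin (OYG_10001653_10036282), a core protein of molluscan thick filaments, had 147, 169, 397 and 129 RPKM in gill and 1062, 1829.5, 662 and 790.4 RPKM in mantle (log2 change of -2.41 ± 0.42 (SE), adjusted p = 0.0108), with adjusted p = 0.0623 without pool 1-L and 0.0528 without pool 2-H.

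Not all contractile genes were lower in gill. A pair of genes named sarcoplasmic calcium-binding protein, a soluble calcium buffer of invertebrate muscle, went opposite ways. The first (OYG_10006806_10008005) had 100.3, 137, 62.4 and 298 RPKM in gill and 14.7, 9.87, 30.7 and 44.3 RPKM in mantle (log2 change of 2.58 ± 0.41 (SE), adjusted p = 0.00795). The second (OYG_10006807_10017438), chosen after its values were seen, had 2.71, 7.15, 3.76 and 5.72 RPKM in gill and 322, 478, 144 and 93.9 RPKM in mantle (log2 change of -5.53 ± 0.44 (SE), adjusted p = 0.0018). In both cases the tissues did not overlap. Regulators of the actin filament, chosen after their values were seen, were lower in gill. Troponin T (OYG_10017461_10025164) had 178, 157, 180.1 and 78.4 RPKM in gill and 853, 1014, 703 and 378 RPKM in mantle (log2 change of -2.30 ± 0.19 (SE), adjusted p = 0.00188). Calponin-2 (OYG_10025378_10035587) had 98.7, 87.6, 87.7 and 45 RPKM in gill and 480.2, 653, 350.1 and 212 RPKM in mantle (log2 change of -2.35 ± 0.21 (SE), adjusted p = 0.0019), and G2-H was the lowest library for both.

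Shell matrix genes included some of the largest differences among named genes on the log2 scale. Of 139 genes of shell and mineral matrix, 86 were tested, and 24 were called lower in gill, against 5.67% of all genes. Another 7 were called higher, a share near the 9.18% of all genes, and the median log2 change was -0.87. The 53 members not tested fell under the level filter. The calls were 3 higher and 18 lower without pool 1-L, 2 higher and 19 lower without pool 1-H, 8 higher and 23 lower without pool 2-L and 2 higher and 17 lower without pool 2-H, and over the 136 members with reads and without the level filter, 5 were called higher and 25 lower, with a median of -0.87. The groups inside this list did not move together. Tyrosinases, copper enzymes that oxidize phenols and are thought to cross-link the periostracum and shell matrix, were called lower in gill in 10 of 12 tested genes, with a median log2 change of -6.13. The other 13 of 25 fell under the level filter, which the tested ones passed through their mantle values, and over the 25 members with reads and without the level filter, 0 were called higher and 11 lower, with a median of -3.04. Tyrosinase calls were 7 without pool 1-L, 9 without pool 1-H, 10 without pool 2-L and 8 without pool 2-H. Their summed level was 5.33, 6.11, 90.5 and 6.22 RPKM in gill and 336, 314, 915 and 1845 RPKM in mantle. G2-L held most of the tyrosinase signal among the gills. Chitinases were lower in 7 of 17 tested and higher in 0, with 5 without pool 1-L, 6 without pool 1-H, 6 without pool 2-L and 5 without pool 2-H. Chitin synthases, which make the chitin scaffold of the shell, were higher in gill in 4 of 9 tested and lower in 0, with 2 without pool 1-L, 2 without pool 1-H, 5 without pool 2-L and 2 without pool 2-H. These families were chosen after their values were seen.

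Among tyrosinases, a gene named tyr-3 (OYG_10012743_10004554) had 0.622, 1.91, 17.1 and 3.81 RPKM in gill and 91.4, 99.4, 218 and 394 RPKM in mantle. Its groups did not overlap (log2 change of -5.73 ± 0.53 (SE), adjusted p = 0.00203). A second tyr-3 gene (OYG_10007753_10020919), among the largest differences, had 0, 0, 4.22 and 0 RPKM in gill and 47.3, 49.9, 56.4 and 352 RPKM in mantle (log2 change of -8.34 ± 1.15 (SE), adjusted p = 0.00476). Except in G2-L, no gill library had reads of it. Another (OYG_10011916_10034657) had 0, 0, 7.35 and 0.212 RPKM in gill and 11.2, 16.1, 222 and 543 RPKM in mantle (log2 change of -7.45 ± 0.87 (SE), adjusted p = 0.00288). In mantle this gene was higher in both group 2 pools than in both group 1 pools, an order for which no test was made. A tyr-1 gene (OYG_10017983_10004635), chosen after its values were seen, had 0.238, 0.209, 0.397 and 0 RPKM in gill and 45.5, 23.2, 12.1 and 34.8 RPKM in mantle (log2 change of -6.59 ± 0.69 (SE), adjusted p = 0.00241).

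Enzymes that cut chitin were lower in gill as well. Chitotriosidase-1 (OYG_10026600_10040289) had 0, 0, 0.854 and 1.35 RPKM in gill and 62.5, 61.9, 78.7 and 269 RPKM in mantle (log2 change of -8.12 ± 0.56 (SE), adjusted p = 0.00167). A second gene of this name (OYG_10026605_10010934) had 0, 0, 34.6 and 3.12 RPKM in gill and 77.6, 88.3, 278 and 410.0 RPKM in mantle (log2 change of -7.35 ± 1.06 (SE), adjusted p = 0.00547). Both had 0 reads in the gills of group 1. Chitobiase (OYG_10007857_10010827), which splits chitin fragments and was chosen after its values were seen, had 0, 0, 6.21 and 0.128 RPKM in gill and 39.7, 43, 41.3 and 418 RPKM in mantle (log2 change of -7.73 ± 1.19 (SE), adjusted p = 0.00688). In no pool did gill reach the mantle level of these 3 genes. The opposite direction was seen for chitin synthase 1 (OYG_10010453_10032983), with 426, 409, 334 and 311 RPKM in gill and 161, 180.4, 159.6 and 121 RPKM in mantle (log2 change of 1.25 ± 0.17 (SE), adjusted p = 0.00473). A partial chitin synthase 1 (OYG_10015842_10032983) had 164, 139, 43.9 and 196 RPKM in gill and 19.2, 20, 18.6 and 26.3 RPKM in mantle (log2 change of 2.50 ± 0.33 (SE), adjusted p = 0.00411), and G2-L, its lowest gill, was still above every mantle.

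Mineral and bicarbonate genes included single genes with large differences in families with few other calls. The electroneutral sodium bicarbonate exchanger 1 (OYG_10027254_10036261), a membrane carrier of bicarbonate, had 0.306, 0.134, 32.3 and 10.3 RPKM in gill and 403, 438, 678 and 1218 RPKM in mantle. Both gills of group 2 were above both gills of group 1, and all were far below the mantles (log2 change of -8.02 ± 0.99 (SE), adjusted p = 0.00341). Carbonic anhydrase 6 (OYG_10028495_10005765), from a family that makes bicarbonate from carbon dioxide, had 0, 1.53, 2.42 and 0.46 RPKM in gill and 14.2, 25.9, 26.5 and 112 RPKM in mantle (log2 change of -5.55 ± 0.79 (SE), adjusted p = 0.00516). It was the 1 gene called among 17 tested carbonic anhydrases and nacreins, a share near the 5.67% of all genes called lower. The calls of this family were 0 higher and 1 lower without pool 1-L, 0 higher and 1 lower without pool 1-H, 1 higher and 1 lower without pool 2-L and 0 higher and 1 lower without pool 2-H. Laccases were looked at as well, and these genes and families were chosen after their values were seen. Laccase-15 (OYG_10008711_10010863), another phenol-oxidizing copper enzyme, had 2 reads over the gill libraries and 139 over the mantle libraries, a depth-scaled ratio of mantle to gill of 72.9 (95% exact interval 19.8 to 608). Its gill reads were all in G2-L, and the interval holds counting error only, without the spread between pools. In the laccase family 2 of 16 tested genes (12.5%) were called lower and 0 higher, against 5.67% and 9.18% of all genes, with 1 higher and 2 lower without pool 1-L, 0 higher and 2 lower without pool 1-H, 0 higher and 3 lower without pool 2-L and 0 higher and 2 lower without pool 2-H.

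**Figure D3:**
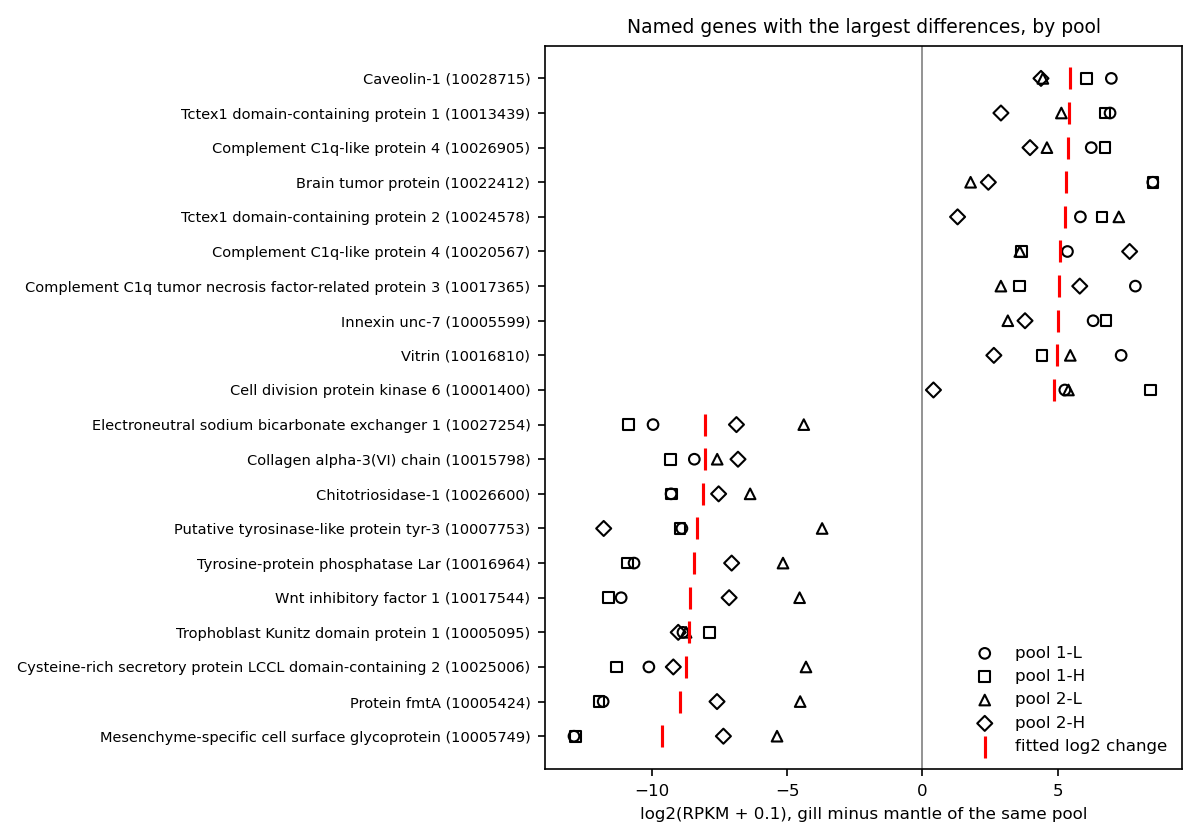
Difference in log2(RPKM + 0.1), gill minus mantle of the same pool, for the 10 named genes with the largest log2 change in each direction, one symbol per pool and a red bar at the fitted change. For 8 of the 10 genes lower in gill the triangle of pool 2-L lies closest to 0, as for protein fmtA, which had 45 RPKM in G2-L against 356 RPKM or more in every mantle.

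Other named genes with large differences lower in gill had the following values, while some unnamed or hypothetical genes differed more. Mesenchyme-specific cell surface glycoprotein (OYG_10005749_10005185) had 0, 0, 27.7 and 9.45 RPKM in gill and 753, 729, 1154 and 1566 RPKM in mantle (log2 change of -9.61 ± 1.27 (SE), adjusted p = 0.00412). Protein fmtA (OYG_10005424_10032998) had 0, 0, 45 and 5.07 RPKM in gill and 356, 398, 1035 and 998 RPKM in mantle (log2 change of -8.97 ± 1.19 (SE), adjusted p = 0.00416). Wnt inhibitory factor 1 (OYG_10017544_10032779), a secreted antagonist of Wnt ligands, had 0, 0, 23.5 and 6.38 RPKM in gill and 225, 312, 549 and 917 RPKM in mantle (log2 change of -8.61 ± 1.12 (SE), adjusted p = 0.00397). These 3 had 0 reads in G1-L and G1-H and more in G2-L than in G2-H. Trophoblast Kunitz domain protein 1 (OYG_10005095_10011014), named for a protease inhibitor domain, had 0 reads in the gills and 46.1, 23.3, 42.5 and 52 RPKM in the mantles. Set against a floor of 3 reads per library, it was at least 13.4-fold lower in gill (adjusted p = 0.00157 in limma).

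The named genes with the largest differences in the other direction had low levels. Innexin unc-7 (OYG_10005599_10002810), a subunit of invertebrate gap junctions, had 74 reads over the gill libraries and 3 over the mantle libraries, a depth-scaled ratio of gill to mantle of 23.5 (95% exact interval 7.74 to 117). Tctex1 domain-containing protein 1 (OYG_10013439_10037306) had 92 reads over the gill libraries and 3 over the mantle libraries, a depth-scaled ratio of gill to mantle of 29.2 (95% exact interval 9.69 to 144). Both intervals hold counting error only, without the spread between pools. Vitrin (OYG_10016810_10011635), an extracellular matrix protein, had 16.1, 16.9, 34.5 and 32.8 RPKM in gill and 0, 0.698, 0.685 and 5.19 RPKM in mantle (log2 change of 4.96 ± 0.74 (SE), adjusted p = 0.00598). These 3 calls stayed under every left-out pool. Caveolin-1 (OYG_10028715_10029282), a coat protein of membrane pits, had 12.5, 6.6, 2.08 and 1.98 RPKM in gill and 0 in all mantles. Its call was lost with adjusted p = 0.07 without pool 1-L and 0.0601 without pool 1-H, and its level was too low for a bound on the fold. Cell division protein kinase 6 (OYG_10001400_10038082), a cell cycle kinase, had 42.8, 34.1, 41.8 and 46.1 RPKM in gill and 1.02, 0, 0.896 and 34.8 RPKM in mantle. M2-H alone reached the gill level (log2 change of 4.87 ± 1.12 (SE), adjusted p = 0.0305), and the call was lost with adjusted p = 0.114 without pool 1-L, 0.0789 without pool 1-H and 0.0895 without pool 2-L.

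Collagens and other matrix genes moved in both directions. Of 88 collagens, 60 were tested, with a median log2 change of -0.35. Of the 60, 11 were called higher in gill and 14 lower, against 9.18% and 5.67% of all genes. The calls were 10 higher and 6 lower without pool 1-L, 10 higher and 8 lower without pool 1-H, 10 higher and 15 lower without pool 2-L and 11 higher and 5 lower without pool 2-H. Genes named for type VI collagen, which forms beaded filaments around cells, gave the highest levels in both tissues. Collagen alpha-5(VI) (OYG_10012008_10011384) had 4637, 4832, 1312 and 3009.9 RPKM in gill and 593, 619.8, 436 and 932 RPKM in mantle (log2 change of 2.30 ± 0.32 (SE), adjusted p = 0.00484). It was among the most abundant genes higher in gill, and G2-L was its lowest gill value. Collagen alpha-3(VI) (OYG_10025212_10032818) had 1316, 865, 2665 and 2417 RPKM in gill and 46.6, 61, 246 and 544 RPKM in mantle (log2 change of 3.56 ± 0.40 (SE), adjusted p = 0.00276). Within each tissue, both group 2 pools stood above both group 1 pools for this gene, which was not tested.

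The type VI collagens lower in gill were other genes. Collagen alpha-6(VI) (OYG_10003289_10033212) had 78.6, 131, 167 and 25 RPKM in gill and 1206, 1036, 988 and 630.2 RPKM in mantle (log2 change of -3.53 ± 0.35 (SE), adjusted p = 0.00223). The 2-H gill was the lowest library. A further gene of that name (OYG_10022004_10033212) had 76.6, 104, 129.9 and 27 RPKM in gill and 1124, 1042, 889 and 504 RPKM in mantle (log2 change of -3.55 ± 0.27 (SE), adjusted p = 0.00167). Both may be copies that share reads. A collagen alpha-3(VI) gene (OYG_10015798_10027835) had 0 reads in gill and 34.4, 63, 19.1 and 11.2 RPKM in mantle, and was at least 31.2-fold lower in gill against the floor of 3 reads per library (adjusted p = 0.00188 in limma). Tenascin-R, a matrix glycoprotein of nervous tissue in vertebrates, named a family chosen after its values were seen, with 10 of 18 tested genes called higher and 0 lower (9 without pool 1-L, 7 without pool 1-H, 9 without pool 2-L and 6 without pool 2-H), and over the 31 members with reads and without the level filter, 9 were called higher and 0 lower, with a median of 1.01. One of them (OYG_10007645_10025556) had 80.8, 50.1, 114 and 89.4 RPKM in gill and 5.27, 0.943, 4.63 and 9.63 RPKM in mantle (log2 change of 4.32 ± 0.40 (SE), adjusted p = 0.002). The low-density lipoprotein receptor gene (OYG_10028190_10030180), named for an uptake receptor of lipoproteins, had 1509.7, 1178, 300.2 and 834 RPKM in gill and 4826, 3587, 3975 and 3693 RPKM in mantle (log2 change of -2.29 ± 0.38 (SE), adjusted p = 0.00948).

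**Figure D4:**
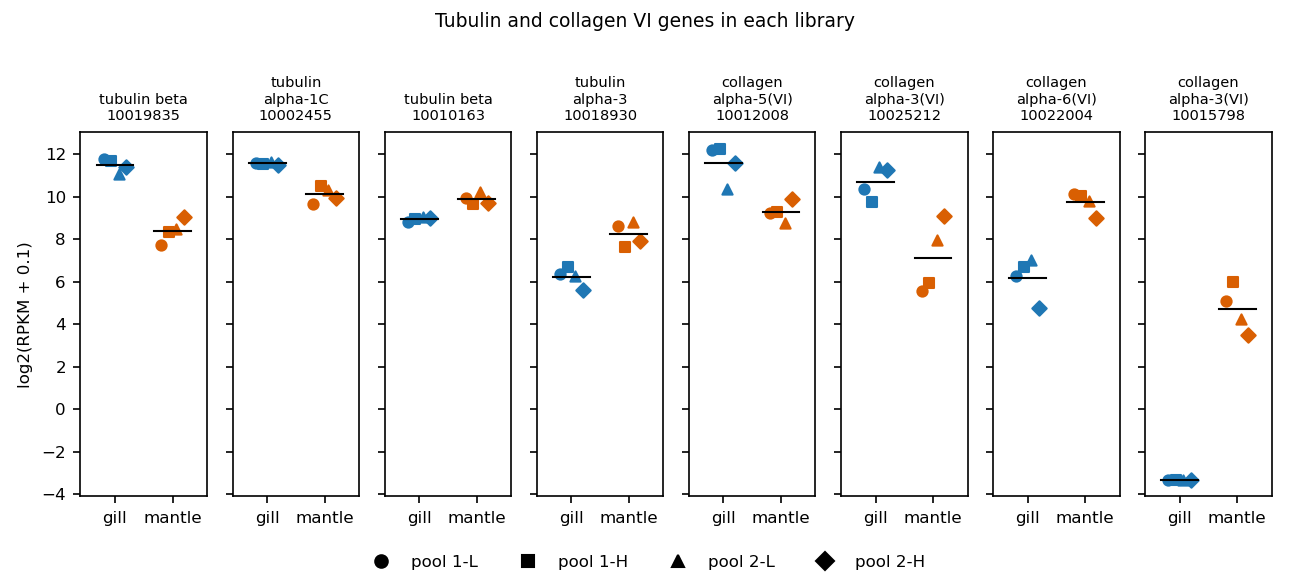
Log2(RPKM + 0.1) of 4 tubulin and 4 type VI collagen genes in the 8 libraries, with gill in blue left of mantle in orange, circles for pool 1-L, squares for 1-H, triangles for 2-L and diamonds for 2-H, and black lines at the means. In each family 2 genes sit higher in gill and 2 lower; the first tubulin beta chain lay at 2129 RPKM or more in gill and at 517 RPKM or less in mantle, and the last collagen alpha-3(VI) gene has 0 reads in all gills.

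Transcription factors of the homeobox and paired box kind were called lower in gill more often than all genes were. Of 97 such genes, 73 were tested, 23 were called lower in gill, against 5.67% of all genes, and 7 higher, a share near the 9.18% of all genes. The median log2 change was -0.10 against 0.21 for all genes. The calls were 4 higher and 17 lower without pool 1-L, 6 higher and 16 lower without pool 1-H, 6 higher and 22 lower without pool 2-L and 4 higher and 17 lower without pool 2-H. One of those higher in gill, Pax-6 (OYG_10027695_10041050), known for its part in eye and brain development, had 60.1, 43.6, 66.3 and 53.1 RPKM in gill and 2.4, 8.29, 6.33 and 13.7 RPKM in mantle (log2 change of 3.07 ± 0.44 (SE), adjusted p = 0.00526). Its tissues did not overlap. Of the other developmental factors, T-box factor TBX20 (OYG_10020437_10014318), a heart regulator in vertebrates, had 66.1, 82.1, 52.8 and 111 RPKM in gill and 7.72, 8.14, 9.97 and 12.1 RPKM in mantle (log2 change of 3.0 ± 0.24 (SE), adjusted p = 0.0018), and 5 of 35 tested genes of that list were called higher and 4 lower (3 higher and 2 lower without pool 1-L, 4 higher and 3 lower without pool 1-H, 5 higher and 4 lower without pool 2-L and 3 higher and 2 lower without pool 2-H).

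Homeobox genes lower in gill included factors that pattern the body axis. Homeobox even-skipped-like protein 1 (OYG_10013058_10014718) had 0, 0, 3.72 and 2.65 RPKM in gill and 47.2, 78.4, 126 and 241 RPKM in mantle (log2 change of -7.50 ± 0.75 (SE), adjusted p = 0.00228). The aristaless-related homeobox gene (OYG_10005826_10006397) had 29.3, 36.1, 26.5 and 25.2 RPKM in gill and 172, 80.1, 132 and 90.7 RPKM in mantle (log2 change of -1.96 ± 0.27 (SE), adjusted p = 0.00442). Engrailed (OYG_10012208_10037883), known from shell-forming cells of mollusc embryos and chosen after its values were seen, had 5.66, 6.22, 7.07 and 2.24 RPKM in gill and 28, 40.6, 33.5 and 26.3 RPKM in mantle (log2 change of -2.67 ± 0.30 (SE), adjusted p = 0.00279). For all 3 genes the gill values lay below the mantle values. Hox genes are clustered regulators of position along the body, and those named here were also lower in gill in all pools. Hox-B7 (OYG_10026565_10028175) had 0.778, 0, 7.13 and 0 RPKM in gill and 64.1, 111, 43.1 and 56.6 RPKM in mantle (log2 change of -7.01 ± 1.15 (SE), adjusted p = 0.00887). Hox-B4a (OYG_10024091_10008330) had 0.645, 0.568, 5.37 and 1.53 RPKM in gill and 15.8, 15.9, 39.8 and 100.4 RPKM in mantle (log2 change of -4.45 ± 0.51 (SE), adjusted p = 0.00279). Among the gills, G2-L had the highest value of both. Goosecoid (OYG_10007832_10038497) had 3 reads over the gill libraries and 268 over the mantle libraries, a depth-scaled ratio of mantle to gill of 93.7 (95% exact interval 31.7 to 457). Zinc finger protein ZIC 4 (OYG_10016115_10022514), of a family active in neural development, had 1 reads over the gill libraries and 159 over the mantle libraries, a depth-scaled ratio of mantle to gill of 167 (95% exact interval 29.5 to 6631). All gill reads of goosecoid and ZIC 4 were in G2-L, and both intervals hold counting error only, without the spread between pools. The Hox genes and goosecoid were chosen after their values were seen.

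**Figure D5:**
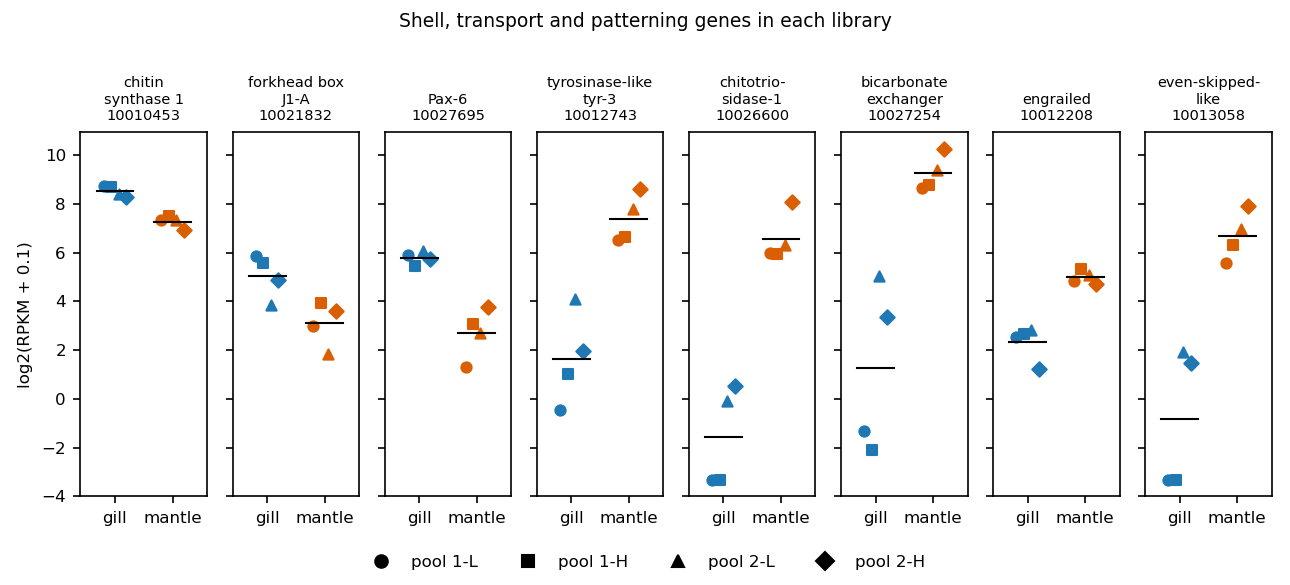
Log2(RPKM + 0.1) of shell, transport and patterning genes in the 8 libraries, with gill in blue left of mantle in orange, circles for pool 1-L, squares for 1-H, triangles for 2-L and diamonds for 2-H, and black lines at the means. Pax-6 lay at 43.6 RPKM or more in gill and at 13.7 RPKM or less in mantle, while even-skipped-like protein 1 lay at 3.72 RPKM or less in gill and at 47.2 RPKM or more in mantle.

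Nicotinic acetylcholine receptor subunits, which form ion channels opened by acetylcholine, numbered 121, of which 74 were tested, with a median log2 change of 0.52. Of the 74, 16 (21.6%) were called higher in gill and 6 (8.11%) lower, against 9.18% and 5.67% of all genes. The calls were 11 higher and 1 lower without pool 1-L, 14 higher and 1 lower without pool 1-H, 14 higher and 5 lower without pool 2-L and 9 higher and 1 lower without pool 2-H, and over the 119 members with reads and without the level filter, 15 were called higher and 5 lower, with a median of 0.32. A neuronal acetylcholine receptor alpha subunit (OYG_10000478_10009624) had 165, 210.4, 128 and 425 RPKM in gill and 6.77, 6.57, 18.8 and 40.8 RPKM in mantle (log2 change of 3.93 ± 0.38 (SE), adjusted p = 0.0022). A second (OYG_10011838_10005958) had 52.1, 71.9, 64.8 and 164 RPKM in gill and 1.58, 5.31, 9.38 and 19.4 RPKM in mantle (log2 change of 3.63 ± 0.38 (SE), adjusted p = 0.00236). In both the tissues did not overlap. Transient receptor potential channels, cation channels of sensory cells, were called higher in 18 of 38 tested genes and lower in 1, with 7 without pool 1-L, 6 without pool 1-H, 16 without pool 2-L and 10 without pool 2-H. The 1 lower in gill, a subfamily M member 3 gene (OYG_10018819_10004569), had 3 reads over the gill libraries and 205 over the mantle libraries, a depth-scaled ratio of mantle to gill of 71.7 (95% exact interval 24.2 to 351). Its gill reads were all in G2-L, and the interval holds counting error only, without the spread between pools. The family and this gene were chosen after their values were seen.

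Opsins, the light receptor proteins, gave 1 called higher and 1 called lower of 17 tested, or 5.88% each, against 9.18% and 5.67% of all genes (1 higher and 0 lower without pool 1-L, 1 higher and 0 lower without pool 1-H, 1 higher and 0 lower without pool 2-L and 1 higher and 0 lower without pool 2-H). A Gq-coupled rhodopsin (OYG_10025250_10023454) had 31.6, 44.7, 21.7 and 46.4 RPKM in gill and 6.52, 10.8, 7.36 and 15.1 RPKM in mantle (log2 change of 1.86 ± 0.24 (SE), adjusted p = 0.00386). Of 78 tested neuronal and secretory genes 4 (5.13%) were called higher and 5 (6.41%) lower, against 9.18% and 5.67% of all genes (0 higher and 4 lower without pool 1-L, 3 higher and 2 lower without pool 1-H, 2 higher and 3 lower without pool 2-L and 1 higher and 2 lower without pool 2-H), and the sign of their small median changed with the scaling. Myomodulin neuropeptide 2 (OYG_10025175_10007001), a peptide that acts on molluscan muscle, had 2.01, 8.83, 3.34 and 7.95 RPKM in gill and 18.4, 38.4, 28.7 and 26.6 RPKM in mantle (log2 change of -2.51 ± 0.33 (SE), adjusted p = 0.00422). Glutamate decarboxylase-like protein 1 (OYG_10007861_10041513) had 4.41, 2.33, 3.67 and 6.28 RPKM in gill and 31.8, 18.5, 32.3 and 25 RPKM in mantle (log2 change of -2.71 ± 0.30 (SE), adjusted p = 0.00269). GAT2 (OYG_10028335_10036542), a GABA transporter gene that the study followed up, had 50.9, 49.4, 77.2 and 93.8 RPKM in gill and 46.4, 120.2, 52.6 and 109 RPKM in mantle. The tissues overlapped, and the difference was not called (log2 change of -0.20 ± 0.31 (SE), adjusted p = 0.705).

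Transporters of small solutes were more often lower in gill. Of 239 solute carriers, 202 were tested, with a median log2 change of -0.18 against 0.21 for all genes. Of the 202, 26 were called lower in gill and 3 higher, against 5.67% and 9.18% of all genes. The calls were 1 higher and 14 lower without pool 1-L, 1 higher and 19 lower without pool 1-H, 2 higher and 21 lower without pool 2-L and 1 higher and 13 lower without pool 2-H. Monocarboxylate transporter 2 (OYG_10012587_10022010), a carrier of lactate and related acids, had 0, 0, 1.88 and 0 RPKM in gill and 453, 2.06, 75 and 91.2 RPKM in mantle (log2 change of -7.91 ± 1.27 (SE), adjusted p = 0.00803). Its mantle values ran from 2.06 RPKM in M1-H to 453 RPKM in M1-L, a wide spread inside 1 tissue. The amino acid transporter B(0,+)-type 1 (OYG_10023295_10003222) went the other way, with 37.5, 39.1, 45.8 and 52.6 RPKM in gill and 14.8, 12.1, 14 and 13.5 RPKM in mantle (log2 change of 1.67 ± 0.21 (SE), adjusted p = 0.00386). Among ion pumps, exchangers and channels of water, 3 of 58 tested (5.17%) were called higher and 4 (6.90%) lower, against 9.18% and 5.67% of all genes (2 higher and 2 lower without pool 1-L, 2 higher and 5 lower without pool 1-H, 4 higher and 6 lower without pool 2-L and 3 higher and 3 lower without pool 2-H). Sodium/calcium exchanger 3 (OYG_10016977_10015510), which moves calcium out of cells, had 57.5, 43.9, 30 and 51.3 RPKM in gill and 6.79, 8.72, 4.93 and 13.5 RPKM in mantle (log2 change of 2.47 ± 0.26 (SE), adjusted p = 0.00249). Aquaporin-4 (OYG_10022545_10016950), a water channel, had 1.13, 0, 3.75 and 0.891 RPKM in gill and 12.6, 28.7, 35.2 and 17.6 RPKM in mantle (log2 change of -4.72 ± 0.84 (SE), adjusted p = 0.012).

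Immune genes were divided by family. The C1q domain family, secreted recognition proteins that are numerous in bivalves, had 99 members. Of these, 51 were tested, and 15 were called higher in gill and 6 lower, against 9.18% and 5.67% of all genes. The median log2 change was 1.45, or 1.03 with the 6 genes that had 0 reads in a tissue set to the bound that the depth allows. The other 48 fell under the level filter, and over the 97 members with reads and without the level filter, 11 were called higher and 6 lower, with a median of 0.56. The calls were 6 higher and 6 lower without pool 1-L, 7 higher and 4 lower without pool 1-H, 13 higher and 6 lower without pool 2-L and 8 higher and 3 lower without pool 2-H. A complement C1q-like protein 4 gene (OYG_10011387_10037142) had 63, 65.4, 88.2 and 192 RPKM in gill and 3.85, 5.74, 2.25 and 27.7 RPKM in mantle (log2 change of 3.88 ± 0.39 (SE), adjusted p = 0.00229). A C1q-like protein 2 gene (OYG_10003000_10008977) had 0, 0, 1.31 and 0.533 RPKM in gill and 41.8, 34.6, 68.8 and 183 RPKM in mantle (log2 change of -7.73 ± 0.58 (SE), adjusted p = 0.00167). Neither gene had overlapping tissues, and they stood in opposite directions. A C1q-like protein 4 gene at low level (OYG_10026905_10009858) had 26 reads in gill and 0 in mantle, at least 2.14-fold higher in gill against the floor of 3 reads per library, with its call lost at adjusted p = 0.0693 without pool 1-L and 0.0768 without pool 1-H.

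Lectins, proteins that bind sugars, gave 11 of 90 tested called higher and 14 lower, against 9.18% and 5.67% of all genes, with 6 higher and 12 lower without pool 1-L, 6 higher and 11 lower without pool 1-H, 6 higher and 11 lower without pool 2-L and 3 higher and 8 lower without pool 2-H. Many members were near 0, and over the 182 members with reads and without the level filter, 9 were called higher and 13 lower, with a median of -0.10. Galectin-4 (OYG_10005550_10024548) had 32.9, 36.7, 36 and 53.8 RPKM in gill and 8.97, 10.2, 14.7 and 11.7 RPKM in mantle (log2 change of 1.80 ± 0.24 (SE), adjusted p = 0.00421). Fucolectin (OYG_10001540_10039749) had 8.23, 6.34, 6 and 2.44 RPKM in gill and 154, 61.8, 176 and 89.6 RPKM in mantle (log2 change of -4.37 ± 0.34 (SE), adjusted p = 0.00167). Big defensin (OYG_10007635), an antimicrobial peptide, had 2.92, 1.71, 0.811 and 1.54 RPKM in gill and 10.9, 38.1, 37.4 and 37 RPKM in mantle (log2 change of -4.03 ± 0.57 (SE), adjusted p = 0.00526). It was the 1 gene called lower among 12 lysozymes and antimicrobial genes tested. Another 2 were called higher, against 9.18% higher and 5.67% lower of all genes (0 higher and 1 lower without pool 1-L, 0 higher and 1 lower without pool 1-H, 2 higher and 1 lower without pool 2-L and 0 higher and 1 lower without pool 2-H). Protein toll, a receptor of immune and developmental signals, named 5 genes called lower in gill of 8 tested, with 1 without pool 1-L, 4 without pool 1-H, 3 without pool 2-L and 0 without pool 2-H. Lipoxygenases, which oxidize fatty acids, were called higher in 8 of 17 tested and lower in 0, with 3 without pool 1-L, 5 without pool 1-H, 7 without pool 2-L and 3 without pool 2-H. With centring, quantile normalization or voom, 1 lipoxygenase was called lower, and 5 of the 17 had a negative log2 change. Their summed level was similar in both tissues, with 745, 838, 398 and 620 RPKM in gill and 782, 769, 406 and 587 RPKM in mantle. The last 2 families were chosen after their values were seen.

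Extracellular superoxide dismutases and metallothioneins, both of which bind Cu, were either called lower in gill or not called. Extracellular Cu-Zn superoxide dismutase, a very abundant protein of oyster plasma, was called lower in gill in 4 of 5 genes, with 1 without pool 1-L, 2 without pool 1-H, 1 without pool 2-L and 1 without pool 2-H. These calls also rested on the pairing, with 0 for tissue alone and 2 for tissue, Cu class and oyster group without the block. The most abundant (OYG_10026148_10030582) had 11740.5, 11568, 767 and 3227 RPKM in gill and 21823, 26425, 6666 and 10841 RPKM in mantle. Gill was lower within each pool (log2 change of -1.74 ± 0.43 (SE), adjusted p = 0.037), but group 1 gills overlapped group 2 mantles, and the call was lost with adjusted p = 0.0668 without pool 1-L, 0.0769 without pool 1-H, 0.0778 without pool 2-L and 0.137 without pool 2-H. A less abundant gene (OYG_10018834_10030585), chosen after its values were seen, had 419.9, 518, 43.7 and 196 RPKM in gill and 1342, 1377, 304 and 504 RPKM in mantle (log2 change of -1.81 ± 0.28 (SE), adjusted p = 0.0068) and kept its call under each left-out pool. Of 5 metallothioneins, which bind Cu and other metals, 0 were called. Metallothionein OYG_10012042_10029507 had 59.3, 37.7, 30.4 and 257 RPKM in gill and 92.3, 58.5, 209 and 557 RPKM in mantle (log2 change of -1.29 ± 0.37 (SE), adjusted p = 0.0632), and without pool 2-L its adjusted p was 0.0317. Metallothionein OYG_10021194_10012460 had 64.8, 55.6, 293 and 38.1 RPKM in gill and 58.2, 67.2, 616 and 78.9 RPKM in mantle (log2 change of -0.56 ± 0.26 (SE), adjusted p = 0.206), with both 2-L libraries far above the rest of their tissue.

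Housekeeping lists had negative medians and few calls. Of 86 cytosolic ribosomal protein genes, 84 were tested, 3 were called lower in gill and 0 higher, against 5.67% and 9.18% of all genes. The calls lower in gill were 2 without pool 1-L, 1 without pool 1-H, 1 without pool 2-L and 0 without pool 2-H. The median log2 change was -0.77, or -0.47 without pool 2-L and -0.30 with quantile normalization. Their summed level was 201885, 168425, 108416 and 95932 RPKM in gill and 242946, 193131, 332475 and 183403 RPKM in mantle. M2-L was the highest of all libraries and G2-H the lowest, and gill was below mantle in each pool. Of 47 tested genes of the mitochondrial respiratory chain, 4 were called lower and 0 higher, against 5.67% and 9.18% of all genes, with a median of -0.48. Their calls lower in gill were 1 without pool 1-L, 1 without pool 1-H, 2 without pool 2-L and 1 without pool 2-H.

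Lists of markers of other tissues and cells that a dissected piece might hold were counted as well. Of 31 gonad and germ line markers, 23 were tested and 0 were called in limma, also with any pool left out, with a median log2 change of 0.12. Their summed level was 502.7 to 604 RPKM in the gills and 464 to 516 RPKM in the mantles, and 4 markers had 0 reads in all gills and 2 in all mantles. The most abundant members were a bromodomain testis-specific protein (OYG_10013170_10015555) with 380.3, 376, 305 and 293 RPKM in gill and 306, 294, 347 and 250.2 RPKM in mantle, and a putative vitellogenin receptor (OYG_10017985_10004633) with 32.9, 35.4, 65.7 and 56.6 RPKM in gill and 40.9, 46.4, 64.5 and 52.8 RPKM in mantle, and the tissues overlapped in both. In every library the bromodomain gene alone held most of the summed level, so that the sum says little about the other gonad markers. Whether this gene, named by its best protein match, marks gonad in oysters was not tested. Of 22 tested digestive gland markers, 2 were called higher and 2 lower, shares of 9.09% each against 9.18% and 5.67% of all genes. The calls were 1 higher and 2 lower without pool 1-L, 0 higher and 1 lower without pool 1-H, 2 higher and 1 lower without pool 2-L and 0 higher and 0 lower without pool 2-H. The digestive gland list summed to 273 to 881 RPKM in the gills and 469 to 1011 RPKM in the mantles, with G1-L the highest gill. Of 39 tested hemocyte markers, 4 were called higher and 8 lower, against 9.18% and 5.67% of all genes, with 3 higher and 5 lower without pool 1-L, 3 higher and 6 lower without pool 1-H, 3 higher and 7 lower without pool 2-L and 3 higher and 4 lower without pool 2-H. The list summed to 1306 to 1641 RPKM in the gills and 1678 to 3017 RPKM in the mantles. The part of blood cells in the other results was not tested. One of those higher in gill, a tissue inhibitor of metalloproteinase TIMP (OYG_10023365_10039421), had 94.4, 98, 84.1 and 111 RPKM in gill and 11.3, 17.3, 12.9 and 15 RPKM in mantle (log2 change of 2.78 ± 0.20 (SE), adjusted p = 0.00167). Another TIMP gene (OYG_10020628_10007937) was lower in gill, with 24.9, 25.8, 37.2 and 19.7 RPKM in gill and 124, 55.4, 188 and 47.7 RPKM in mantle (log2 change of -1.75 ± 0.28 (SE), adjusted p = 0.00773).

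The difference between gill and mantle was next compared between Cu classes and between oyster groups. In limma with 2 residual degrees of freedom, the difference depended on Cu class for 0 of 20123 genes (0%), with 705 genes at an unadjusted p under 0.05 and a smallest adjusted p of 0.799. It depended on oyster group for 0 genes (0%), with 1137 at an unadjusted p under 0.05 and a smallest adjusted p of 0.733. With both terms in the model 1 gene was called for Cu class, metalloproteinase inhibitor 3 (OYG_10000389_10036144), an inhibitor of matrix proteases. It had 46.6, 0, 166 and 0 RPKM in gill and 73.6, 65.9, 810.3 and 233 RPKM in mantle. Reads were absent from both high-Cu gills and present in both low-Cu gills, and the gill minus mantle difference was lower in high-Cu than in low-Cu pools by a log2 of -8.80 ± 0.48 (SE; adjusted p = 0.0122, with 1 residual degree of freedom). With 0 reads in both high-Cu gills, this size and its SE depend on the added 0.1 and are no bound. For GAT2 the contrast by Cu class was taken from the fit with that term alone and 2 residual degrees of freedom. It was -1.09 ± 0.50 on the log2 scale (SE), with an adjusted p of 0.952 in limma.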

How the data were processed

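Digital gene expression was measured in 4 gill and 4 mantle libraries, each of RNA pooled from 6 oysters. Before mapping, the authors filtered their tags with Perl scripts, dropping those of low quality, without insert or seen once. Tophat2 placed the remaining tags on the genome of Crassostrea gigas with no more than 1 mismatch, tags with an unambiguous gene were counted, and Cufflinks is named for comparing libraries. Further version numbers and the use of strand were not given in the sources used here. The deposited values are RPKM per gene, in which a dash was read as 0. The labels gave tissue and Cu class, and the study's methods gave the exposure and the number of oysters per pool. All value columns were matched to a library by name.

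Values were analysed as log2(RPKM + 0.1) for genes with a mean of at least 1 RPKM, with limma 3.58.1 in R 4.3.3 (lmFit, eBayes with an intensity trend), the pool as a block with 3 residual degrees of freedom, and Benjamini-Hochberg adjustment over 20123 genes at 0.05. The study describes gills and mantles of the same oysters, which is the source of the pairing, although its methods can also be read as either tissue of an oyster. Deviations from the tissue means correlated between the gill and mantle of pools 1-L, 1-H, 2-L and 2-H at 0.126, 0.0925, 0.177 and 0.252. Because RPKM steps in whole reads, reads were recovered for 100% of 25181 genes, with 99.9% of values within 0.01 read of a whole number, and used for totals, a floor of 3 reads per library, exact Clopper-Pearson intervals of read ratios (95%, counting error only) and a limma voom alternative. Read recovery and the paired fit were also run on simulated libraries. These had the same spread setting for every gene and a pool effect equal in both tissues. They held no differences of single libraries such as those of G2-L and M2-L, and no result here rests on them. Python 3.11.15 with numpy 2.4.6, pandas 2.3.3, scipy 1.17.1 and matplotlib 3.10.9 was used for the rest.

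Lists were patterns in the protein names, 23 of them, plus 14 name families chosen after their values were seen, and false matches of names were removed after the names were read. Members and lists were chosen with earlier results of these data known, and lists are described by counts and medians without a test. Genes named by rule, among named genes called with 1 direction in 4 pairs, were the 10 with the largest change each way (mean of at least 5 RPKM in the higher tissue), the 5 most abundant each way, and in each list up to 3 called members each way, or the 2 most abundant where 0 were called. The 3 genes with the smallest p of each interaction and GAT2 were added, and any gene outside the rule is said to have been chosen after its values were seen. Alternatives were pseudocounts of 1 and 0.01, no filter, a mean of at least 5 RPKM, centring, quantile normalization, no block, no trend, voom, a rule of 2-fold in all pairs, and each pool left out. Of 25647 gene IDs, 0 were found in the RefSeq gene table, so that no coordinates or sequences are given.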

Additional observations from a re-analysis of the deposited data

Results flagged for a closer look

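In 31 of 344 groups of 4 libraries (9.01%), the gap between 1 library and the next took up most of the range of the 4 on the log2 scale. Of these, 13 were G2-L, 6 M2-H, 4 G2-H, 3 M1-L, 2 G1-L, 2 M2-L and 1 M1-H. The flag sets the gap against the range, so that a flagged library can differ little from the others. The whole log2 range was 0.0861 for intraflagellar transport protein 74-like in gill and 0.364 for tektin-1 in mantle, both of which were flagged. The groups were the named genes, taken in gill and in mantle, and most of these genes were picked by their values. In several of the 31 groups the other 3 libraries had no reads of the gene. The rate of about 1 in 20 that chance gives holds for groups without such picking and such ties. The share of 9.01% therefore cannot be compared with it. No explanation was tested.

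G2-L was the only gill with reads of several mantle genes. It had 0.511 RPKM of zinc finger protein ZIC 4, 0.295 RPKM of ZIC 1, 1.54 RPKM of transient receptor potential channel M3, 2.43 RPKM of goosecoid, 2.63 RPKM of laccase-15 and 1.88 RPKM of monocarboxylate transporter 2. It also had 2.39 RPKM of cysteine-rich secretory protein LCCL domain-containing 2, and 4.22, 20.8 and 18.0 RPKM of 3 tyrosinase tyr-3 genes (OYG_10007753_10020919, OYG_10026226_10034033 and OYG_10011913_10033287). Above nonzero gills, G2-L had 9.12 RPKM of monocarboxylate transporter 12 (next 1.37) and 61.6 RPKM of intraflagellar transport protein 74-like (next 58.5), and below them 7.07 RPKM of the sodium- and chloride-dependent glycine transporter 1 (next 14.4).

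G2-H was low for calponin-2 (45 RPKM, next 87.6), for troponin T (78.4 RPKM, next 157) and for Hox-C11 (0 RPKM, next 1.05), and was the only gill with reads of a peroxidasin-like gene (0.301 RPKM). G1-L was high for the bactericidal permeability increasing protein (131 RPKM, next 71.3) and low for synaptotagmin-12 (1.99 RPKM, next 3.97).

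In mantle, M2-H stood high for the tyr-3 gene OYG_10007753_10020919 (352 RPKM, next 56.4), chitotriosidase-1 OYG_10026600_10040289 (269 RPKM, next 78.7), chitobiase (418 RPKM, next 43), sodium/calcium exchanger 1 (6.52 RPKM, next 0.713) and Tctex1 domain-containing protein 2 (3.55 RPKM, next 0), and low for C1q-like protein 2 OYG_10007882_10005153 (12.2 RPKM, next 88.8). M1-L stood high for the extracellular superoxide dismutase OYG_10000265_10030585 (228 RPKM, next 74) and low for Pax-9 (1.17 RPKM, next 3.41) and big defensin (10.9 RPKM, next 37). M2-L stood high for metallothionein OYG_10021194_10012460 (616 RPKM, next 78.9) and low for tektin-1 (37.2 RPKM, next 46.3). M1-H was the only mantle with reads of C1q tumor necrosis factor-related protein 3 OYG_10017365_10003130 (0.705 RPKM).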

How the results depend on the processing

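The count of 2987 called genes ranged from 2199 without the intensity trend to 3639 with voom over the settings that kept all libraries, and from 1399 to 2664 when a pool was left out. Leave-one-out counts were 822 to 1662 for genes higher in gill (1847 in all pools) and 577 to 1002 for genes lower (1140). Requiring 2-fold in all 4 pairs without a model gave 1220 higher. Without the pairing by pool the count was of similar size, but the genes called changed in part. With tissue alone 2598 genes were called, 2430 of them among the 2987. With tissue, Cu class and oyster group 3158 were called, 2860 of them among the 2987. Calls by Cu class were 0 with each interaction alone and 1 with both terms. Of 162 named called genes, 95 kept the call under every alternative run, 15 lost it only when a pool was left out, and 0 reversed; of 2261 comparisons, 326 missed the threshold, with 56 without pool 1-L, 45 without pool 1-H, 19 without pool 2-L, 55 without pool 2-H and 45 without the trend. List medians that changed sign under some setting were those of neuronal genes, other developmental factors, opsins, mucins, lectins and gonad markers. The causes were not tested. A gene at 3 reads in a library is at 1.16 to 1.49 RPKM for a length of 1 kb, which limits differences between low genes.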
